A study of Caenorhabditis elegans with 4 samples.

Results

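The genes described here encode P granule components of the nematode Caenorhabditis elegans: pgl-1, pgl-3, glh-1, glh-2, glh-3, glh-4 and deps-1. They were chosen by gene symbol, through array probes that the platform's annotation assigns to a single gene. In all, 9 of 21632 probes met this rule and covered 6 of the 7 genes, with 2 probes each for glh-1, glh-2 and glh-4 and 1 each for pgl-1, pgl-3 and glh-3. In the newer gene table used for names (assembly WBcel235) these are pgl-1 (ZK381.4) on chromosome IV, pgl-3 (C18G1.4) on chromosome V, and glh-1 (T21G5.3), glh-2 (C55B7.1), glh-3 (B0414.6) and glh-4 (T12F5.3) on chromosome I. No probe was assigned to deps-1, which was therefore not analysed here. RNA came from 4 preparations (preps 1 to 4) of wild-type (wt) larvae at the second larval stage, L2, and each was hybridised on its own 2-colour DNA array against a mixed wild-type reference RNA. No source used here gives the strain, the growth conditions or the make-up of the reference. The single comparison is L2 against this reference, and each value is a log2 ratio.

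P granules are RNA and protein condensates without a membrane that mark the germ line of the worm. In larval and adult germ cells they sit on the outer face of the nuclear envelope over nuclear pores, where they meet newly exported transcripts. PGL-1 and PGL-3 are the scaffold proteins of the granule, GLH-1 to GLH-4 are relatives of the fly RNA helicase Vasa, and DEPS-1 promotes PGL assembly and the accumulation of glh-1 transcript. The germ line of an L2 larva is a small population of dividing cells that has not yet made sperm or oocytes.

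No dyes are named in the labels, which list the reference first and L2 second, so a negative ratio is read as likely lower in L2. The major sperm proteins, which L2 larvae do not yet make, followed this reading, with all 29 genes measured below 0 in every prep in which they had a value. The number of arrays limits the precision, and between 21209 and 21386 probes had a value on each. Prep 3 stood apart over the whole array: its deposited values correlated with those of the other preps at r from 0.476 to 0.564, and the other preps with each other at r from 0.670 to 0.728. Whether the preps were grown separately is not stated, so p-values measure only the spread between 4 samples, part of which may be technical. Ratios were centred on each array's median, the probes of a gene were averaged, and all genes were tested together with limma, a moderated linear model, with a threshold of 0.05 on the Benjamini-Hochberg adjusted p.

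Of the 6 P granule genes measured, 1 fell in L2 and 0 rose. The gene that fell was pgl-3, at a mean log2 ratio of -0.90, or 1.86-fold below the reference. Across the array 9.87% of 19941 tested features (genes, or single probes where no one gene is named) fell by the same test and 4.85% rose, so 1 of 6 is close to the background and is no result about the set. The means of all 6 genes were below 0 and lay between -0.90 (pgl-3) and -0.25 (glh-1). Their median was -0.72, against 0.01 over all features tested. In 5 of the 6 genes the ratio was below 0 in all 4 preps, as it was in 22.7% of the 19153 features with a value on every array. The exception was glh-1. Without centring the count was 4 of 6 (21.1% of features), since pgl-1 then stood at 0.01 in prep 1, and it was also 4 with centring on the mean or quantile normalization. In whole larvae, fewer germ cells and less of a transcript per germ cell cannot be told apart, and the same holds for the reference.

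The PGL scaffold genes behaved differently from prep to prep. The log2 ratio of pgl-3 was -0.57 in prep 1, -1.37 in prep 2, -0.82 in prep 3 and -0.83 in prep 4. All 4 preps were below 0, and prep 2 was the lowest. The mean was -0.90 ± 0.34 (SD, n = 4), with a 95% interval from -1.33 to -0.47 and an adjusted p of 0.0224 in limma. The call depended on which preps were kept. Without prep 3 the adjusted p was 0.0407, but without preps 1, 2 and 4 it was 0.0537, 0.0772 and 0.0689. Against a fold of 1.5 in place of 0, the decrease of pgl-3 was not past the threshold (adjusted p = 0.612).

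The ratio of pgl-1, which encodes the founding member of the PGL family, was -0.01 in prep 1, -0.24 in prep 2, -1.90 in prep 3 and -0.54 in prep 4. Prep 3 lay far below the others, and prep 1 was at the reference level. Its mean of -0.67 ± 0.85 (SD, n = 4) was not past the threshold (limma, adjusted p = 0.193), with a 95% interval from -1.43 to 0.08. Without prep 3 the mean of pgl-1 was -0.26 (adjusted p = 0.330).

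The third gene of the family, pgl-2, is not counted among the P granule components here but encodes a protein related to both. Its ratios were -1.21, -1.58, -1.87 and -1.41 in preps 1 to 4, so all lay within a narrow range below the reference. The mean was -1.52 ± 0.28 (SD, n = 4), or 2.86-fold lower, and passed the threshold (limma, adjusted p = 0.00318), as it did without each prep in turn (adjusted p from 0.00829 to 0.0187). On the same array pgl-3 was above pgl-2 in 4 of 4 preps, by 0.62 ± 0.34 on the log2 scale. An exact two-sided sign-flip permutation test gave the smallest p that 4 preps allow, which cannot pass the threshold (adjusted p = 0.1875 over 6 comparisons with pgl-2). The ratio of pgl-1 was above that of pgl-2 in 3 of 4 preps and within 0.03 of it in prep 3 (exact p = 0.25, adjusted p = 0.25).

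**Figure D1:**
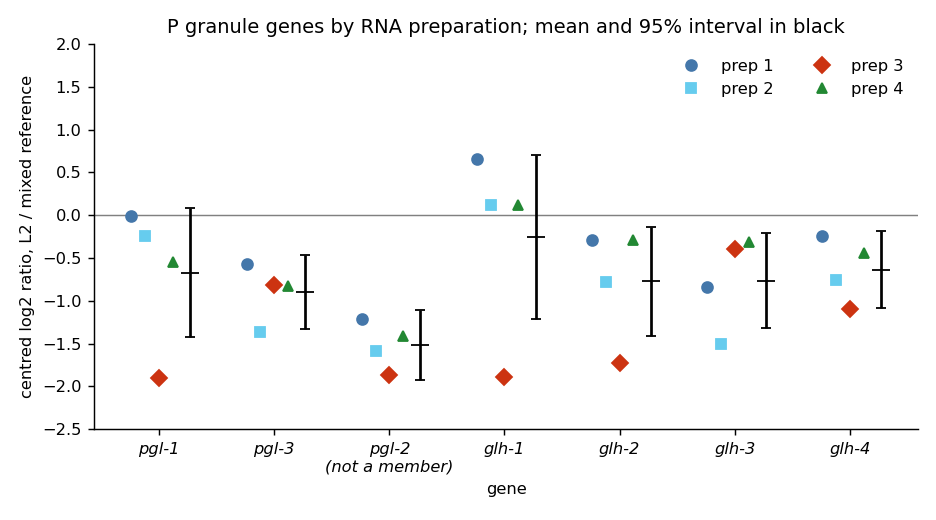
Centred log2 ratio of L2 over the mixed reference for each measured P granule gene and for pgl-2, with 1 symbol per RNA preparation and, in black, the mean of 4 preps with its 95% interval from limma. Prep 3 is the lowest of the 4 preps for pgl-1, glh-1, glh-2 and glh-4, and prep 2 is the lowest for pgl-3 and glh-3.

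Of the 4 glh genes, which encode DEAD-box RNA helicases of the Vasa family, 0 passed the threshold in either direction. Their adjusted p in limma ran from 0.0694 (glh-4) to 0.694 (glh-1), and over all features 9.87% fell and 4.85% rose. GLH-1 and GLH-2 carry stretches of phenylalanine-glycine repeats like those of nuclear pore proteins, and GLH-1 is the main Vasa-like helicase of the worm germ line. The ratio of glh-1 was 0.65 in prep 1, 0.12 in prep 2, -1.89 in prep 3 and 0.12 in prep 4. It was thus above 0 in 3 preps and far below 0 in prep 3 alone. The mean was -0.25 ± 1.12 (SD, n = 4; limma, adjusted p = 0.694), and its 95% interval from -1.21 to 0.71 covers changes of more than 1 unit downward. The sign of the mean turned without prep 3 (0.30, adjusted p = 0.297), and also with array weights (0.10) and a robust fit (0.12), so no direction is given for glh-1.

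Both probes of glh-1 were far below 0 in prep 3 and near or above 0 in the other preps. The first read 0.57, 0.25, -1.98 and -0.04 in preps 1 to 4 and the second 0.74, -0.00, -1.81 and 0.28. The first minus the second was -0.17, 0.26, -0.17 and -0.32 in preps 1 to 4, with a signed mean of -0.10. These 2 probes were the closest of all pairs among the P granule genes by Euclidean distance over the 4 preps (0.48).

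The probes of glh-2, the gene most closely related to glh-1, differed from each other. The first read 0.20, -0.09, -1.62 and -0.12 in preps 1 to 4, near the reference except in prep 3. The second read -0.77, -1.48, -1.83 and -0.45 and was lower in every prep. Taken alone, the second probe passed the threshold (-1.13 ± 0.63, limma on single probes, adjusted p = 0.0323) and the first did not (-0.41 ± 0.82, adjusted p = 0.395). The first probe of glh-2 was closer to pgl-1 (distance 0.56) and to the first probe of glh-1 (0.62) than to the second probe of its own gene, which lay at a distance of 1.74. Related genes such as glh-1 and glh-2 can share hybridisation on DNA arrays, so their values are uncertain, and its part in these readings was not tested. As a gene, glh-2 was at -0.29, -0.78, -1.72 and -0.29 in preps 1 to 4. Its mean was -0.77 ± 0.68 (SD, n = 4; limma, adjusted p = 0.0996), and -0.45 without prep 3 (adjusted p = 0.141).

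The family member that lacks the phenylalanine-glycine repeats, glh-3, had a different order of preps. Its ratio was -0.84 in prep 1, -1.50 in prep 2, -0.39 in prep 3 and -0.32 in prep 4. Prep 2 was the lowest and prep 3 was close to prep 4, unlike in glh-1 and glh-2. The mean of -0.76 ± 0.54 (SD, n = 4) had an adjusted p of 0.0716 in limma and was -0.89 without prep 3 (adjusted p = 0.0769).

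The ratio of glh-4, which encodes the largest of the GLH proteins, was -0.24 in prep 1, -0.76 in prep 2, -1.10 in prep 3 and -0.45 in prep 4. All preps were below 0, and prep 3 was the lowest by a small margin. The mean was -0.63 ± 0.38 (SD, n = 4; limma, adjusted p = 0.0694), and -0.48 without prep 3 (adjusted p = 0.118). With the month in the array's title as a random block the adjusted p of glh-4 in limma was 0.0471. The correlation within months in that fit was negative (-0.13), which lowers the standard error of each mean. The adjusted p of pgl-3 fell as well, from 0.0224 to 0.0142. This setting is therefore less strict than the main fit, and glh-4 is not counted as lower. Of its 2 probes, 1 had no value in prep 1, so the gene's value there rests on the other. Where both had values they differed by 0.40 ± 0.05 (n = 3), with the first probe the higher in each prep.

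**Figure D2:**
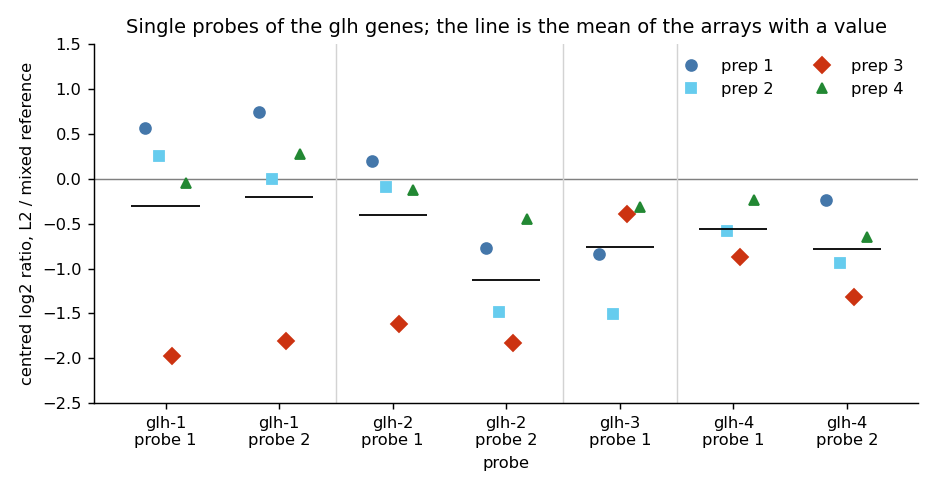
Centred log2 ratio of each single probe of the 4 glh genes, with 1 symbol per RNA preparation and a line at the mean of the arrays with a value. The probes of glh-1 follow each other, the second probe of glh-2 lies below the first in all 4 preps, and the first probe of glh-4 has 3 values.

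The mean difference between a pair of genes was smaller than its SD over the preps for all pairs but pgl-1 and glh-1. Among 15 pairs of the 6 measured genes, compared on the same array, 1 kept its sign in all 4 preps. This pair was pgl-1 and glh-1, with pgl-1 lower by 0.66, 0.37, less than 0.01 and 0.66 in preps 1 to 4, a mean difference of -0.42 ± 0.31 (exact two-sided sign-flip permutation test at its smallest possible p; adjusted p = 0.9375 over 15 pairs). The order of the means from pgl-3 over glh-2, glh-3, pgl-1 and glh-4 to glh-1 therefore holds no neighbours that can be told apart with these 4 preps.

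The values of prep 3 divided the genes. In pgl-1, glh-1 and glh-2 the ratio in prep 3 lay 1.66, 2.02 and 1.43 below the median of the other preps on the log2 scale. A difference that low was found for 2.58%, 1.31% and 3.89% of the 19153 features with 4 values, as a description chosen after the values were seen. In glh-4 prep 3 was 0.65 below, which 15.8% of features reached. In pgl-3 and glh-3 it was 0.01 and 0.44 above the median of the other preps, and over all features the median of this difference was 0.06.

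Of the marker lists of other cells, only body wall muscle had a prep 3 that stood apart from the others by Dixon's criterion (the gap to the nearest value over the whole range). The median of 12 body wall muscle genes was 0.57 in prep 3 and from 1.56 to 1.75 in the others, and that of 14 hypodermis genes was -0.39 against 0.34 to 1.62. For 12 intestine genes it was 0.77 against 1.16 to 1.51, and for 14 neuron genes 0.04 against -0.14 to 0.00. The median of 26 germ cell genes, at -1.12, lay within the range of the other preps (-1.19 to -0.77). That of 19 small RNA genes of the germ granule was lowest in prep 3 (-0.97 against -0.75 to -0.47), and so was that of 17 other RNA helicase genes (-0.42 against -0.12 to 0.24). Other lists of the germ line had no such drop. For granule assembly and clearance genes the median in prep 3 was level with the highest of the others (-0.55 against -1.15 to -0.55). For sperm genes it was the highest (-2.45 against -4.22 to -2.78), and for RNA regulators it lay within the range (-1.38 against -2.39 to -1.07). For the P granule genes it was -1.41 in prep 3 and from -0.77 to -0.26 in the others. The part of these shifts in the low values of pgl-1, glh-1 and glh-2 was not tested.

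The dates in the array titles put preps 1 and 2 in one month and preps 3 and 4 in another. The means of the pairs were -0.12 and -1.22 for pgl-1, 0.39 and -0.89 for glh-1, -0.54 and -1.0 for glh-2, -1.17 and -0.36 for glh-3, -0.50 and -0.77 for glh-4, and -0.97 and -0.82 for pgl-3. The means of glh-1 had opposite signs, but prep 4 (0.12) had the sign of preps 1 and 2, and the low mean of the second month came from prep 3 (-1.89). The difference between months was not tested.

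**Figure D3:**
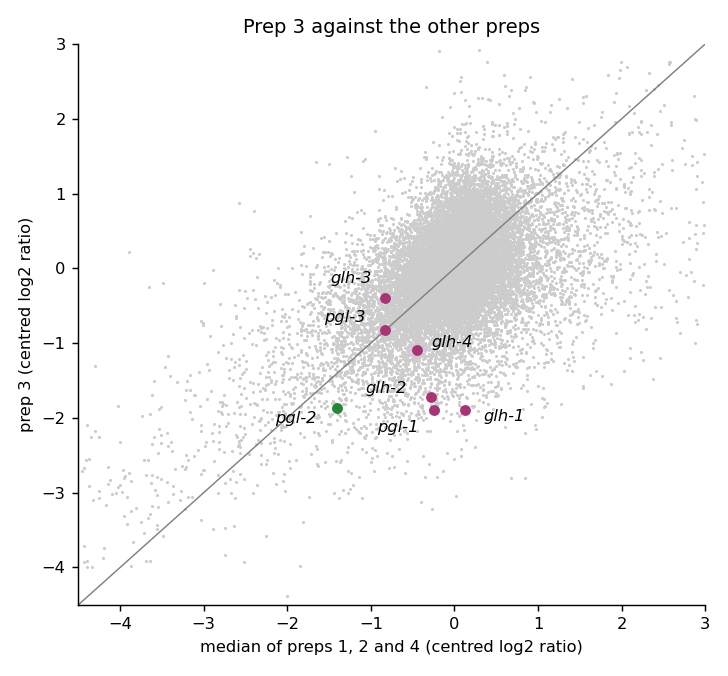
Centred log2 ratio in prep 3 against the median of preps 1, 2 and 4, with grey points for the features with a value on every array, the measured P granule genes in purple, pgl-2 in green and a diagonal of equal values; 108 features outside -4.5 to 3 are not drawn. The genes pgl-1, glh-1 and glh-2 lie below the diagonal, and pgl-3 and glh-3 lie on it or above it.

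The genes around the P granule core were read from lists by role, whose counts stand against 9.87% lower and 4.85% higher over all features. Leaving out a prep changed the calls of the whole array. Without preps 1, 2, 3 and 4, decreases over all features numbered 872, 879, 1840 and 1207, against 1968 with all preps. A change in a list's count without a prep is therefore no result about the list by itself. Among 19 measured genes of granule assembly and clearance, 6 fell and 0 rose, with a median of -0.97. Those that fell include lotr-1, which encodes a Tudor and LOTUS domain protein of germ granules. Its ratios were -2.16, -2.48, -2.47 and -1.69 in preps 1 to 4 (mean -2.20 ± 0.37, n = 4; limma, adjusted p = 0.00139), so that prep 3 did not stand apart. The gene meg-3, whose disordered protein builds P granules in the embryo, read -2.06, -2.53, -0.55 and -0.94. Its decrease (-1.52 ± 0.93, limma, adjusted p = 0.0314) was not past the threshold without preps 1, 2 and 4 (adjusted p = 0.112, 0.0957 and 0.0510) or with a robust fit (adjusted p = 0.0754). Also lower were pgl-2, the autophagy gene epg-4, and mip-1 and mip-2, whose LOTUS domain proteins bind GLH-1; these 4 are named after their values were seen. At kgb-1, a kinase that acts on GLH-1 stability, the mean was 0.36 ± 0.14, and at csn-5, which encodes a GLH-binding protein, it was -0.59 ± 0.21; neither passed, and both are named outside the rule for named genes. Without preps 1, 2, 3 and 4 the count of decreases was 5, 4, 7 and 4. As mip-2 had no value in prep 1, it was not tested without preps 2, 3 and 4, and those counts leave it out.

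Small RNA genes whose proteins work in or beside the germ granule had 11 of 19 lower and 0 higher, with a median of -0.73. The lowest were hrde-1, a nuclear Argonaute gene, at -2.57, -3.40, -1.47 and -1.75 in preps 1 to 4 (-2.30 ± 0.87, limma, adjusted p = 0.00677), and wago-1, a P granule Argonaute gene, at -1.15, -1.87, -2.06 and -1.77 (-1.71 ± 0.40, adjusted p = 0.00326). The piRNA Argonaute gene prg-1 read 0.18, -1.64 and 0.22 in preps 1, 3 and 4, with no value in prep 2 (named after its values were seen). Without preps 1, 2, 3 and 4 the count of 11 was 5, 6, 9 and 6. Decreases over all features were then 872, 879, 1840 and 1207, against 1968 with all preps. One of the 11, henn-1 (named after its values were seen), had no value in prep 2. It was not tested in the fits without preps 1, 3 and 4, so those counts leave it out.

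RNA regulators that bind mRNA or visit P granules had 17 of 28 lower and 0 higher, with a median of -1.59 that was lower than that of the P granule genes. The lowest were pos-1 and oma-2, CCCH zinc finger genes whose products are supplied by the mother. The ratios of pos-1 were -5.67, -5.36, -1.94 and -3.94 (-4.23 ± 1.70, limma, adjusted p = 0.00633), and those of oma-2 -4.98, -5.32, -3.29 and -2.63 (-4.06 ± 1.30, adjusted p = 0.00323). With a single probe in place of the gene mean, pos-1 was at -3.37 and its call ended (adjusted p = 0.0694). The medians of this list in preps 1 to 4 were -1.37, -2.39, -1.38 and -1.07, against -0.26, -0.77, -1.41 and -0.38 for the P granule genes. The P granule genes were nearer to the reference in preps 1, 2 and 4, and level with the regulators in prep 3. The difference between the lists was not tested.

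Other RNA helicases gave a median of -0.02, with 4 of 17 lower and 0 higher. Lowest was cgh-1, the germ line relative of the decapping activator Dhh1, at -1.85, -2.45, -3.98 and -1.79 in preps 1 to 4 (-2.52 ± 1.02, limma, adjusted p = 0.00760). Without prep 2 the 4 decreases were 2, and without prep 3, with array weights or with a robust fit 2 genes were higher. Next was ddx-17 at -1.23, -1.71, -2.74 and -1.02 (-1.67 ± 0.76, adjusted p = 0.0139; 0.0590 without prep 2). Both had their lowest value in prep 3, as glh-1 did. The other decreases were those of mut-14 and smut-1, whose near-identical sequences may share hybridisation and which also belong to the small RNA list. They too are named after their values were seen. As cgh-1 also belongs to the RNA regulators above, ddx-17 is the only one of the 4 decreases not counted in another list.

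Genes of the germ cell list, many of which act in meiosis, were lower as a rule, with 19 of 26 lower, 0 higher and a median of -0.92. The lowest were gld-1, which encodes a translational repressor that acts in meiotic entry and oogenesis, at -2.30, -2.92, -1.60 and -2.28 (-2.27 ± 0.54, limma, adjusted p = 0.00221), and htp-1, a meiotic axis gene, at -1.88, -2.53, -2.41 and -2.15 (-2.24 ± 0.29, adjusted p = 0.00100). Without preps 1, 2, 3 and 4 the count of 19 was 11, 12, 16 and 14, while decreases over all features were 872, 879, 1840 and 1207 (1968 with all preps). Of the 7 genes that did not pass, fbf-2 had a mean of -0.04, nos-3 of -0.15 and fog-3 of 0.67. The means of mes-4, rad-51, rec-8 and msh-5 lay between -0.72 and -0.38 (all 7 named after their values were seen). Gamete genes were far lower. The oocyte and eggshell list had 17 of 18 lower and a median of -3.56, led by perm-2 and cpg-2 (-4.79 ± 1.02 and -4.68 ± 0.86), and the sperm protein list 28 of 29 and a median of -3.15, led by msp-33 and msp-78 (-4.35 ± 0.80 and -4.23 ± 1.06). Each of these 4 means lay further from the reference than any P granule gene. The genes of the sperm list belong to 1 family and can share hybridisation, so they may not be separate readings. Their low values also served above to read the direction of the ratio.

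Genes that keep germ line transcripts, P granule genes among them, silent in somatic cells had 3 of 18 lower and 0 higher, with a median of -0.48. That count is near the share of 9.87% over all features and is no result about the list. Without prep 1 or prep 2 it was 1, while decreases over all features were 872 and 879, against 1968 with all preps. The lowest were lin-54, which encodes the DNA-binding subunit of the DRM complex (-1.44 ± 0.49, limma, adjusted p = 0.00820), and lin-61 (-0.78 ± 0.25, adjusted p = 0.0254). Leaving out prep 1 or prep 2 ended the call of lin-61 (adjusted p = 0.101 and 0.0973), as did centring within runs of neighbouring probes (0.0629). The third, named after its values were seen, was lin-35, the worm retinoblastoma gene (-0.74 ± 0.30, limma, adjusted p = 0.0352). Its call ended without preps 1, 2 and 3 (adjusted p = 0.124, 0.128 and 0.0660). Somatic gonad genes had 4 of 9 lower and 0 higher (median -0.83), with inx-8 at -2.98 ± 1.15 and tbh-1 at -2.82 ± 0.43.

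The medians of the muscle and intestine lists lay above the reference, and that of the P granule genes below it. Body wall muscle had 6 of 12 higher and 0 lower (median 1.46; myo-3 at 2.04 ± 1.06 and unc-89 at 1.77 ± 0.27), and intestine 7 of 12 higher and 0 lower (median 1.06; cpr-5 at 3.22 ± 0.28 and pept-1 at 2.23 ± 0.25). Hypodermis had 3 of 14 higher and 1 lower (median 0.50; dpy-5 at 2.18 ± 1.62, dpy-13 at 2.05 ± 1.51 and the adult collagen gene col-19 at -3.61 ± 0.81). Neurons had 3 of 14 higher and 0 lower (median -0.06; mec-7 at 0.94 ± 0.23 and cat-2 at 0.94 ± 0.40). The calls of myo-3, dpy-5, dpy-13, mec-7 and cat-2 ended without prep 1, 2 or 4 (adjusted p from 0.0508 to 0.161), and that of dpy-13 also with scale (0.0638) and quantile normalization (0.0520). Without prep 3 muscle had 11 and hypodermis 5 genes higher. Without preps 1, 2 and 4 muscle had 4, 4 and 5, hypodermis 0, 1 and 1, and neurons 0 each time. Increases over all features were 1362 without prep 3 and 285, 325 and 492 without preps 1, 2 and 4, against 968 with all preps.

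**Figure D4:**
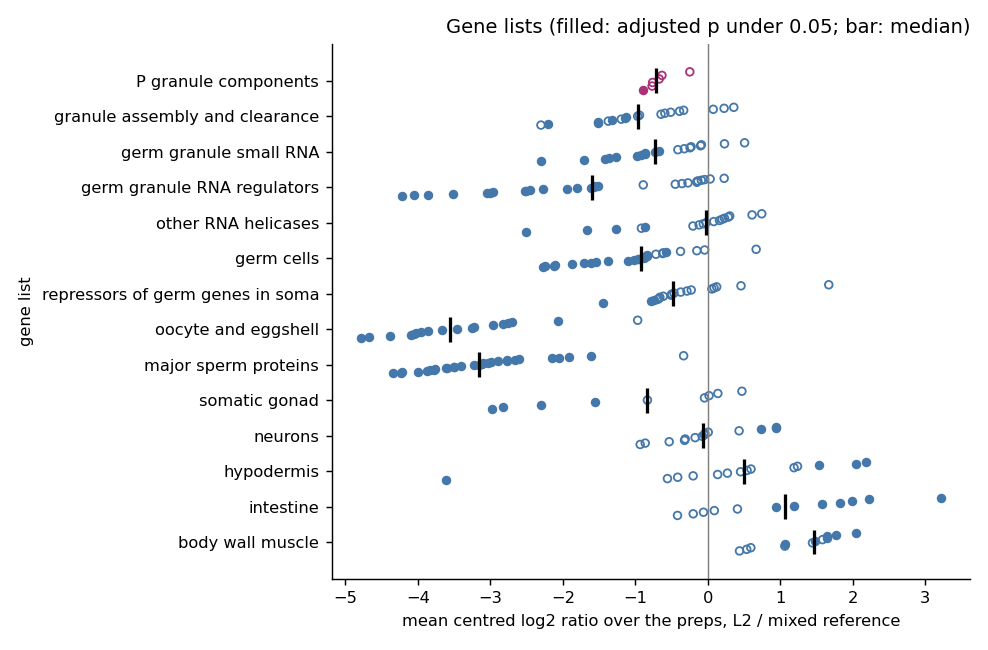
Mean centred log2 ratio over the preps for every measured gene of each list, with filled points for genes past an adjusted p of 0.05 in limma, open points for the others and a black bar at the list's median. The 6 P granule genes lie between -0.90 and -0.25, and their median (-0.72) is nearer to 0 than those of the oocyte and eggshell list (-3.56) and the sperm list (-3.15).

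The genes closest to the median profile of the P granule genes over the 4 preps were M163.1, grp-1, stip-1, sqv-5 and pcp-1. Likeness was the Euclidean distance over 4 preps to the median profile of the 6 genes, which was -0.26, -0.77, -1.41 and -0.38 in preps 1 to 4. The distances of these 5 genes ran from 0.14 (M163.1) to 0.21 (pcp-1), and 181 of 14505 genes (1.25%) lay within 0.5. Of the P granule genes themselves, glh-4 (0.32) and glh-2 (0.33) lay within 0.5, while pgl-1 (0.78), pgl-3 (1.00), glh-3 (1.38) and glh-1 (1.46) did not, so these neighbours are close to the median and not to each P granule gene. The means of the 5 neighbours lay between -0.75 (stip-1) and -0.70 (pcp-1), and 0 of the 5 passed the threshold, with adjusted p in limma from 0.0683 to 0.111. As the 5 were picked by these same values, their means and adjusted p follow from the choice and are no separate result.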

How the data were processed

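The authors deposited 1 log2 ratio per probe and array; no source used here states how spots were corrected, normalized or filtered. Base 2 was read from the numbers, since ratios below 0.9 computed with it were, to within 0.05 thousandths, rounded to 3 decimals in 100% of cases. Array medians as deposited lay between 0.0158 and 0.0580. Scale and centring are known from the values only, and direction from the order of channels in the labels. No intensities were used, so dim spots were not filtered.

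The platform's annotation gives 1 gene for 16450 of 21632 probes, several for 247 and none for 4935. By gene ID, 16360 of the 16450 matched a newer gene table (assembly WBcel235). Each array was centred on its median, probes of a gene were averaged, and features on at least 3 arrays were fitted with limma 3.58.1 (R 4.3.3; mean against 0, two-sided). The reference thus counts as 1 control sample, whose own spread is not measured. The fit was tested on simulated data. Differences within arrays used exact sign-flip tests.

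The genes and lists were chosen with earlier results of these data known, and 11 genes belong to 2 lists. Named are all P granule genes, the 2 lowest and 2 highest genes past the threshold in each list, and the 5 nearest profiles; genes outside this rule are marked as such. Alternatives were other centrings and normalizations, a robust fit, array weights, single probes, a fold of 1.5 as the null, features on all 4 or at least 2 arrays, no values above 6 in size, a month block and leaving out each prep; centring within 32 runs of 676 neighbouring probes was added after seeing the data.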

Additional observations from a re-analysis of the deposited data

Results flagged for a closer look

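Among 70 values tested for a prep far from the others (genes, probes, list medians and differences), 3 were marked, where chance gives about 1 in 20. All 3 concern somatic tissue in prep 3, and no P granule gene was among them, but 3 of 70 is no more than chance gives. The marked gene myo-3 also belongs to the marked muscle list, so the 3 are not separate readings. Its gap over the whole range was 0.832. For the first probe of glh-2 and for glh-1, also lowest in prep 3, it was 0.824 and 0.790, close below. The other P granule genes had smaller gaps. No contrast between somatic and P granule genes is therefore drawn from these marks. For the hypodermal collagen gene dpy-5, prep 3 read -0.22, while the other preps lay between 2.74 and 3.25. For the body wall muscle myosin gene myo-3, prep 3 read 0.47 and the other preps 2.38 to 2.77. The list median of body wall muscle was 0.57 in prep 3, against 1.56 to 1.75 elsewhere.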

How the results depend on the processing

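The mean of glh-1 turned positive with array weights (0.10), with a robust fit (0.12) and without prep 3 (range without each prep -0.55 to 0.30; its probes -0.59 to 0.26 and -0.51 to 0.34). The other P granule genes kept their sign in all settings run. The call of pgl-3 held in all settings but the test against a fold of 1.5 (-0.90, adjusted p = 0.612) and the fits without preps 1, 2 and 4 (means without each prep -1.01 to -0.74). Calls were gained by glh-4 with the month block (-0.63, limma, adjusted p = 0.0471, correlation within months -0.13) and by glh-3 with centring within runs (-0.89, adjusted p = 0.0467). The negative correlation lowers the standard error, so the month block is less strict than the main fit. The count of P granule genes lower was 0 against a fold of 1.5, 2 with the month block, 2 with centring within runs, and 0 to 1 without each prep. For the month block and centring within runs the share of all features lower is not given here, so their counts are no result about the set. The difference of pgl-1 and glh-1 was -0.56 to -0.34 without each prep.

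Features past the threshold numbered 2936 (1968 lower, 968 higher), and 1157 to 3202 (872 to 1840 and 285 to 1362) without each prep. Against a fold of 1.5 they were 652 (503 and 149), and array weights gave 1679 higher. Against a fold of 1.5, the decreases in granule assembly, small RNA and germ cell genes were 2, 2 and 9. Without each prep small RNA decreases were 5 to 9 and germ cell decreases 11 to 16. In these fits a gene with a missing value was tested only when the prep it lacks was left out. Quantile normalization gave 1 germ cell gene higher and array weights 1 small RNA gene higher. Of 28 other named genes, 9 lost their call against a fold of 1.5 and 0 changed sign in any setting. No paired analysis was possible because all samples form 1 group. With 4 arrays, decreases of the size seen in glh-3 and glh-4 sat near the threshold. The causes of these changes were not tested.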
